A study of Mus musculus with 4 samples.

Results

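PGC-1α, encoded by Ppargc1a, is a transcriptional coactivator. It does not bind DNA by itself but is recruited by nuclear receptors such as the estrogen-related receptors (ERR), and it works together with the nuclear respiratory factors NRF1 and GABPA. It is best known for raising the expression of mitochondrial genes, among them subunits of the respiratory chain, enzymes of the citrate cycle and of fatty acid oxidation, and regulators of fuel choice such as pyruvate dehydrogenase kinase. Neurons depend on oxidative metabolism, and oxygen and glucose deprivation (OGD) is a widely used culture model of ischemia.

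The genes described here are those whose expression differed between PGC-1α-overexpressing and control HT-22 cells in the same direction with and without OGD. HT-22 is a mouse hippocampal neuronal line that has been immortalized. RNA-Seq of poly(A) RNA was available for 4 libraries, 1 per condition. Ctrl and Ctrl+OGD cells carried a negative control lentivirus (the sample labels call these cells wild type), and PGC-1α and PGC-1α+OGD cells carried a lentivirus that overexpresses PGC-1α. Both kinds of cells were transduced cultures selected with puromycin. The OGD libraries come from cells that had recovered for 24 h after a 2 h deprivation (gas 5% CO2 and 95% N2, medium lacking glucose and serum). A gene was taken as shared when both PGC-1α libraries exceeded both control libraries by at least 1.5-fold in FPKM + 1, or were below both by as much, where FPKM is fragments scaled by transcript length and by library size. Where 4 values of a gene are given without further words, they stand for Ctrl and PGC-1α and then for their OGD counterparts. Of 10604 genes that averaged 1 FPKM or more, 46 were higher (0.434% of the genes tested) and 44 were lower (0.415%), which gives 90 genes in all. The measured values chose these genes, so that their differences between the sides are a description and were not tested. The 2 libraries of a side also differ in OGD and are not replicates, so no SD is given for a side. An exact two-sided permutation test of 2 libraries against 2 cannot go below p = 0.333. The number of reads behind the values is unknown, and the totals per library were 331892 to 353381 FPKM.

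The labelled cell type was checked against markers. Of 10 neuronal markers, only Eno2 was in the table, at a level of 0.410 to 2.81 FPKM, while Tubb3, Map2, Rbfox3, Nefl, Nefm, Stmn2, Snap25, Syt1 and Dcx were not. Of 7 fibroblast markers, Col1a1, Col1a2, Col3a1 and Pdgfra were in the table, with summed levels of 485, 528, 458 and 435 FPKM. No endothelial marker of 4 was in the table, and of 6 markers each there were 3 for astrocytes (Aldh1l1, Slc1a3 and S100b), 2 for microglia (summed level 0.740 to 2.66 FPKM) and 1 for oligodendrocytes (Mbp, 3.26 to 4.76 FPKM). The summed astrocyte level was 16.4, 24.0, 13.6 and 19.0 FPKM, so that it was higher in both PGC-1α libraries than in both controls, and its part in the results was not tested. In bulk RNA, fewer cells of a type and less RNA per cell cannot be told apart. The neuronal identity of the line is therefore not visible in these markers. No marker of any of these types met the rule for the shared genes.

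**Figure D1:**
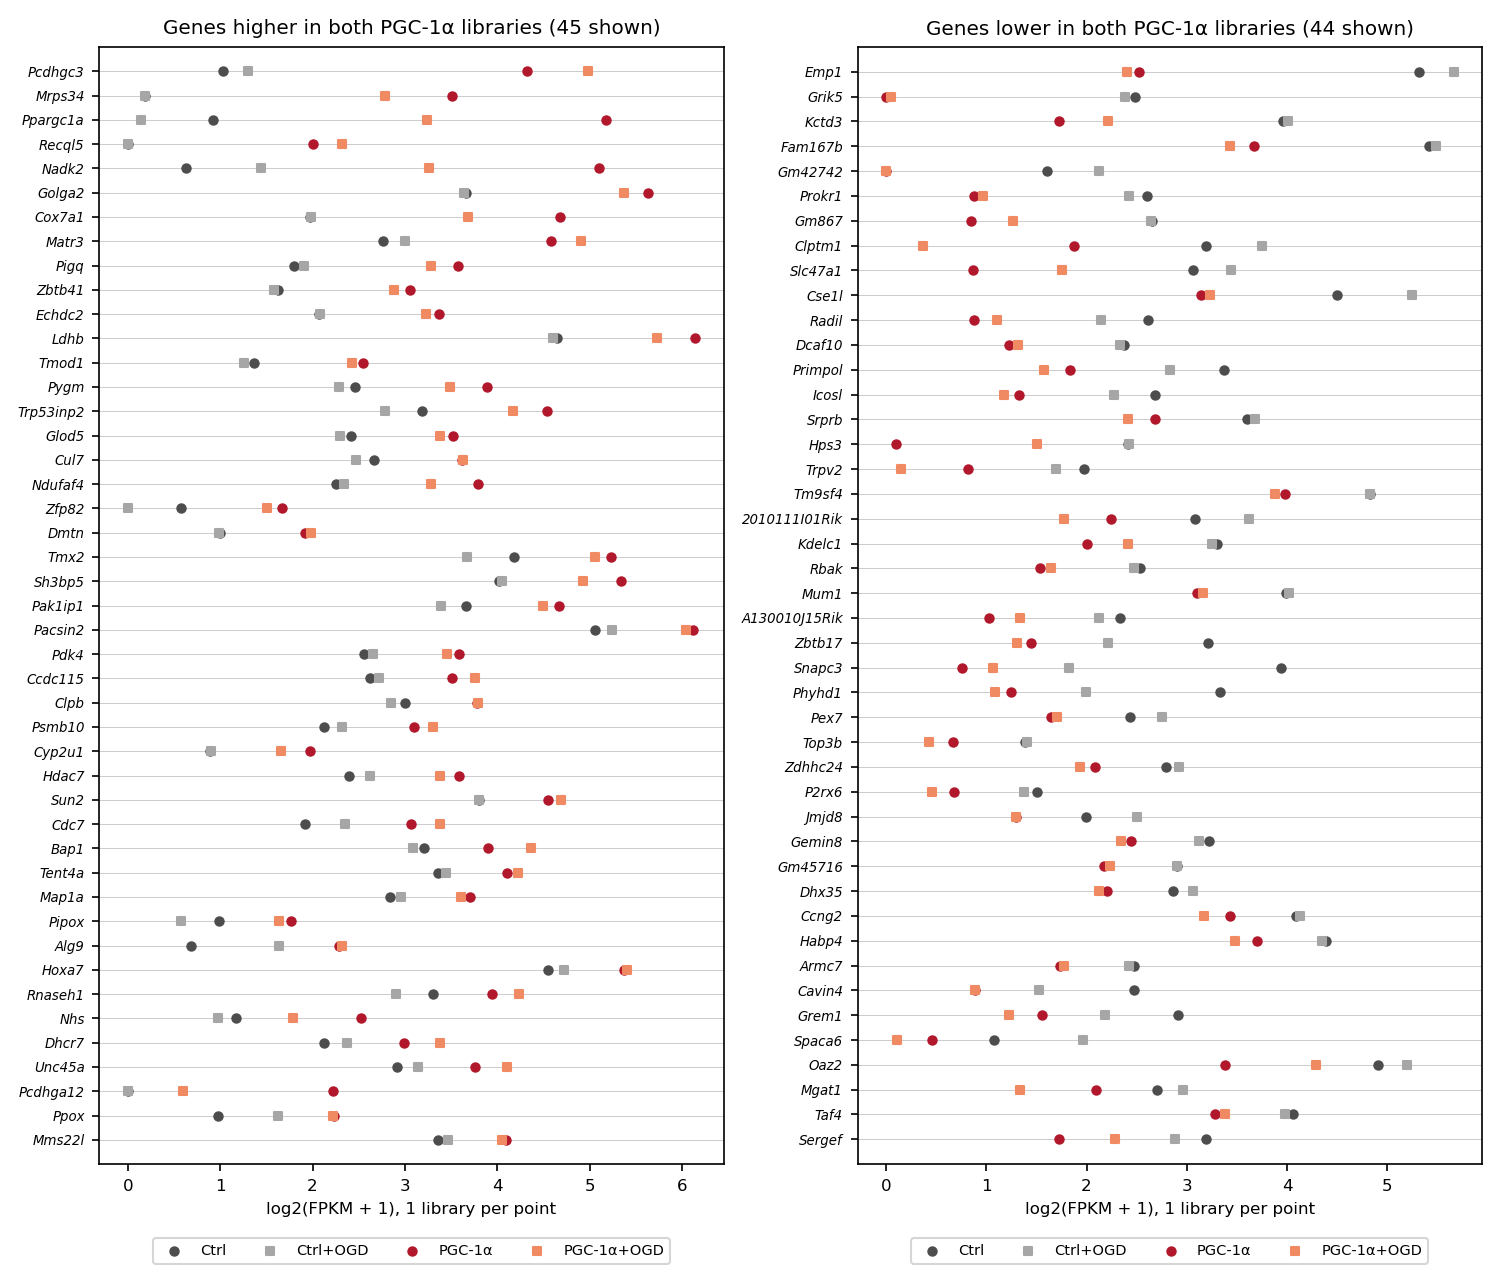
Levels of 45 of the 46 higher genes (left) and of the 44 lower genes (right), ordered from top to bottom by the smallest of the 4 differences between a PGC-1α and a control library. The horizontal axis is log2(FPKM + 1), and each point is 1 library (gray for controls, red and orange for PGC-1α without and with OGD). In every row the PGC-1α points lie on one side of the gray ones, and for Ppargc1a the PGC-1α+OGD level (8.41 FPKM) lies well below the PGC-1α level (35.1 FPKM).

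The overexpressed gene itself was among the higher genes. Ppargc1a (ENSMUSG00000029167, GRCm38 chromosome 5, 51454250 to 51567726, minus strand) was at 0.900 and 0.103 FPKM in the controls without and with OGD, and at 35.1 and 8.41 FPKM in the PGC-1α libraries. The 2 PGC-1α libraries were thus far above both controls, but the library after OGD was 1.94 lower on the log2(FPKM + 1) scale than the one without. In ratios of FPKM + 1, the gene was 19.0 times higher without OGD and 8.53 times higher with OGD. Part of this gap comes from a transcript that reached 9.03 FPKM in the PGC-1α library and is listed at 0 in the other 3, while the other deposited transcript was at 26.0 and 8.41 FPKM in the PGC-1α libraries. Transcripts of the lentivirus and of the chromosomal gene cannot be told apart in this table.

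Among the higher genes, 10 belong to 11 of the 31 gene lists used, which cover respiration, fuel metabolism, stress responses, growth and neuronal functions and hold 1156 of the genes tested. None of the 44 lower genes belongs to any list. Over all genes tested, 0.434% were higher and 0.415% were lower, and no contrast between higher and lower genes is read from these counts. The 12 lists of mitochondrial genes hold 425 tested genes, of which 4 were among the higher genes (Mrps34, Cox7a1, Ndufaf4 and Pdk4), where the share over all genes tested was 0.434%. With so few genes nothing is read from these counts. A further list of 38 tested genes known as PGC-1α targets contained 4 of the higher genes, Cox7a1, Ldhb, Pacsin2 and Pdk4. The share over all genes tested was again 0.434%. The lists were chosen with earlier results of these data known, so nothing is read from this count either.

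Of the respiratory chain, 1 subunit gene met the rule. Cox7a1 (ENSMUSG00000074218, chromosome 7, 30184144 to 30186078) encodes the heart and muscle form of a small subunit of cytochrome c oxidase, the last complex of the chain. Its level was 2.92 and 2.95 FPKM in the controls without and with OGD, against 24.5 and 11.8 FPKM in the PGC-1α libraries. The 2 controls were nearly equal and both PGC-1α libraries lay above them, 6.50 times without OGD and 3.24 times with OGD in FPKM + 1. Of its 2 deposited transcripts, ENSMUST00000098594 carried 97.1% of the summed difference. Ndufaf4 (ENSMUSG00000028261, chromosome 4, 24898083 to 24905001) encodes an assembly factor of complex I, the first complex of the chain. It was at 3.78, 12.8, 4.07 and 8.74 FPKM. The sides did not overlap, and the PGC-1α level was again the highest of the 4.

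To show the sequence before the starts of these genes, the 150 bases upstream of the RefSeq transcription start are printed 5′ to 3′ in the direction of the gene (build GRCm38.p6). They were chosen because Cox7a1 had the largest ratio among the higher genes of the respiratory chain and Ndufaf4 holds letters of the NRF1 core motif, which are set in capitals. The stretches are chr7:30184021-30184170 on the plus strand for Cox7a1, of which the last 27 bases lie within an annotated exon, and chr4:24897933-24898082 on the plus strand for Ndufaf4.
Cox7a1: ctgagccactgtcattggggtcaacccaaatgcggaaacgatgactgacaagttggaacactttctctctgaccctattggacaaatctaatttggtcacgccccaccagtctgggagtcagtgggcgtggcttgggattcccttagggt
Ndufaf4: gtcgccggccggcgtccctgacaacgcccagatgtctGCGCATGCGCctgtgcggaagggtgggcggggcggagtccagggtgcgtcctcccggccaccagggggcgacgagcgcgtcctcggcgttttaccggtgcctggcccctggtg
In Ndufaf4 the NRF1 core GCGCATGC begins at base -113 and its reverse complement GCATGCGC overlaps it from base -111, counted from the base before the start. A further match begins at base 2 after the start. These bases precede the start of ENSMUST00000029925, the deposited Ndufaf4 transcript that met the rule by itself (2.81 and 2.34 FPKM in the controls). In the Cox7a1 window none of the 5 motifs searched was found.

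Genes of fuel use made up the next group. Ldhb, the lactate dehydrogenase subunit that favors conversion of lactate to pyruvate, was at 24.0 and 23.3 FPKM in the controls. It reached 69.7 FPKM without OGD and 51.9 FPKM with OGD in PGC-1α cells, so that even the lower PGC-1α library was 2.11 times the higher control in FPKM + 1. Pdk4 encodes a kinase that switches off pyruvate dehydrogenase and so spares glucose. It was at 4.90 and 5.31 FPKM in the controls without and with OGD, and at 11 and 9.96 FPKM in the PGC-1α libraries. For both genes the libraries of a side were closer to each other than to the other side. Pygm, the muscle form of glycogen phosphorylase, which releases glucose from glycogen, was at 4.49, 13.9, 3.87 and 10.2 FPKM. Pygm is on none of the lists, and both of its deposited transcripts met the rule.

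Nadk2, the mitochondrial NAD kinase, which makes NADP from NAD, had the largest ratio of all shared genes without OGD. It was at 0.554, 33.3, 1.71 and 8.58 FPKM. The ratio in FPKM + 1 was 22.1 without OGD and 3.53 with OGD, so that the size of the gap differed much more between the 2 settings than for Ldhb or Pdk4. Most of the gap without OGD lay in 1 of 3 deposited transcripts, ENSMUST00000100790, which was at 0.00896, 27.8, 0.0800 and 0.691 FPKM. With OGD the gap lay mainly in ENSMUST00000100789 (0.465, 1.26, 1.19 and 5.81 FPKM), which did not meet the rule by itself. Mrps34, a protein of the small mitochondrial ribosome subunit, was at 0.138 and 0.141 FPKM in the controls, against 10.4 and 5.89 FPKM in the PGC-1α libraries. Its exons overlap those of Mapk8ip3 on the other strand, and Mapk8ip3 was at 5.86, 3.09, 5.30 and 6.22 FPKM. The library kit keeps the strand, but how the strand was used in counting is not stated.

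Other higher genes on lists were Pacsin2, Psmb10 and Dhcr7. Pacsin2, a membrane-bending protein of endocytosis, was the most abundant of the 46 genes, with 32.3 and 36.7 FPKM in the controls without and with OGD and 68.3 and 64.7 FPKM in the PGC-1α libraries. Psmb10, a catalytic subunit of the immunoproteasome, was at 3.35, 7.59, 3.99 and 8.85 FPKM. Of the 47 proteasome and 38 interferon genes tested, Psmb10 alone met the rule. Dhcr7, the enzyme of the last step of cholesterol synthesis, was at 3.37 and 4.17 FPKM in the controls and at 6.92 and 9.41 FPKM in the PGC-1α libraries. Its 6 deposited transcripts did not move together. The one that starts first, ENSMUST00000073878, was at 3.32 and 1.61 FPKM in the controls, but at 0.719 FPKM with PGC-1α alone and listed at 0 after OGD. By contrast, ENSMUST00000141916, which starts further downstream, was at 0.0456, 6.17, 0.0104 and 1.47 FPKM. The transcripts of Dhcr7 thus differed in opposite directions.

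The largest gaps among the remaining higher genes were those of Pcdhgc3, Recql5, Golga2, Matr3 and Pigq. Pcdhgc3, a clustered protocadherin of cell adhesion, had the widest separation of all 90 genes, with 1.05 and 1.46 FPKM in the controls and 19.0 and 30.5 FPKM in the PGC-1α libraries. Its lower PGC-1α level was 8.13 times its higher control level in FPKM + 1. It shares exons with 25 annotated genes of the same cluster, so its fragments can be divided among them. Of these, Pcdhga12 also met the rule (listed at 0 in both controls and at 3.67 and 0.516 FPKM in the PGC-1α libraries). Pcdhgb2 of the same cluster was under the level filter, was at 0.700 and 0.357 FPKM in the controls, and is listed at 0 in both PGC-1α libraries. Golga2 encodes GM130, a scaffold of the Golgi apparatus, and was at 11.6, 48.6, 11.4 and 40.5 FPKM. Of its 6 deposited transcripts 3 met the rule, so that its gap did not rest on a single one. Matr3, an RNA-binding protein of the nuclear matrix, was at 5.77 and 7.02 FPKM in the controls and at 23 and 28.9 FPKM in the PGC-1α libraries. Only 1 of its 12 annotated coding transcripts is in the table, so a shift among transcripts could not be seen. Pigq, which takes part in the first step of GPI anchor synthesis, was at 2.49, 10.9, 2.76 and 8.71 FPKM. Recql5, a DNA helicase, was listed at 0 in both controls and at 3.01 and 4.01 FPKM in the PGC-1α libraries. Its exons overlap those of Myo15b and Sap30bp on the other strand. Matr3 and Pigq share exons on the same strand with Gm28285 and Nhlrc4, for which no transcript is listed.

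Several of the smaller differences concern genes with mitochondrial proteins that no list holds. Echdc2, which resembles the enoyl-CoA hydratases of fatty acid oxidation, was at 3.19, 9.31, 3.22 and 8.37 FPKM, although none of its 4 deposited transcripts met the rule by itself. Clpb, a disaggregase of mitochondria, was at 6.98 and 6.21 FPKM in the controls and 12.8 FPKM in both PGC-1α libraries. Ppox, an enzyme of heme synthesis, was at 0.968, 3.70, 2.1 and 3.68 FPKM and lies just inside the threshold. Sh3bp5, which binds the kinase JNK at the outer mitochondrial membrane, was at 15.2 and 15.6 FPKM in the controls and at 39.5 and 29.3 FPKM in the PGC-1α libraries. In Echdc2, Clpb and Sh3bp5 the 2 controls differed by less than the gap between the sides, whereas in Ppox the control after OGD was 0.65 above the one without on the log2(FPKM + 1) scale, against a gap of 0.60.

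The other higher genes have varied roles. Trp53inp2, which promotes autophagy, was at 8.09, 22.3, 5.91 and 17.0 FPKM. The ubiquitin ligase scaffold Cul7 was at 5.33, 11.2, 4.54 and 11.4 FPKM, and the deubiquitinase Bap1 at 8.26, 13.9, 7.48 and 19.6 FPKM. In both genes the control after OGD was the lowest of the 4 libraries. Tmod1 caps actin filaments and was at 1.58, 4.85, 1.40 and 4.38 FPKM, and Dmtn, which bundles them, was at 0.994, 2.79, 0.982 and 2.97 FPKM. Sun2 links the nuclear envelope to the cytoskeleton and was at 13.0 FPKM in both controls and at 22.4 and 24.7 FPKM in the PGC-1α libraries. The microtubule protein Map1a was at 6.14, 12, 6.75 and 11.2 FPKM. The kinase Cdc7, which starts DNA replication, was at 2.78 and 4.12 FPKM in the controls and 7.35 and 9.40 FPKM in the PGC-1α libraries. The histone deacetylase Hdac7 (4.27, 11, 5.18 and 9.40 FPKM) and the homeobox gene Hoxa7 (22.4, 40.2, 25.4 and 41.3 FPKM) are regulators of transcription. Further higher genes were Glod5, Tmx2, Pak1ip1, Ccdc115, Cyp2u1, Tent4a, Pipox, Alg9, Rnaseh1, Nhs, Unc45a and Mms22l. Among them Tmx2, a thioredoxin-related protein of the endoplasmic reticulum, was at 17.2, 36.6, 11.7 and 32.2 FPKM, and Glod5 at 4.32, 10.4, 3.91 and 9.41 FPKM. Pipox, a peroxisomal oxidase, was at 0.980 and 0.489 FPKM in the controls and at 2.41 and 2.1 FPKM in the PGC-1α libraries. Alg9, a mannosyltransferase of N-glycan assembly, was at 0.611, 3.87, 2.11 and 3.97 FPKM, so that its controls were further apart than its PGC-1α libraries.

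The lower genes were led by Emp1. Emp1 (ENSMUSG00000030208, chromosome 6, 135362545 to 135383173), a tetraspan membrane protein, was at 39.0 and 49.6 FPKM in the controls without and with OGD, against 4.75 and 4.29 FPKM in the PGC-1α libraries. The higher PGC-1α library was 6.96 times below the lower control in FPKM + 1, and both deposited transcripts of the gene met the rule. Because it is the largest gap among the lower genes, the 150 bases before 1 of its RefSeq starts are shown. The stretch is chr6:135362781-135362930 (GRCm38.p6) on the plus strand, of which 27 bases lie within an annotated exon. None of the 5 motifs searched was found in the Emp1 windows.
Emp1: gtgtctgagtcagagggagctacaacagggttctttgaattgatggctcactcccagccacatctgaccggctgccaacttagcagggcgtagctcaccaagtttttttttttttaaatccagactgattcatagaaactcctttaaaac

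Further lower genes encode receptors, channels and transporters. Grik5, a subunit of kainate-type glutamate receptors, was at 4.58 and 4.20 FPKM in the controls, listed at 0 with PGC-1α alone and at 0.0375 FPKM after OGD. Prokr1, a prokineticin receptor, was at 5.10, 0.841, 4.36 and 0.952 FPKM. Slc47a1, an exporter of organic cations, was at 7.34 and 9.89 FPKM in the controls and at 0.825 and 2.37 FPKM in the PGC-1α libraries. In these 3 genes the controls lay close together beside the gap. The cation channel Trpv2 (2.92, 0.767, 2.24 and 0.110 FPKM), the ATP-gated channel P2rx6 (1.85, 0.596, 1.60 and 0.374 FPKM) and the costimulatory ligand Icosl (5.42, 1.51, 3.82 and 1.26 FPKM) were all at low levels in every library. Grem1, a secreted antagonist of bone morphogenetic proteins, was at 6.54, 1.94, 3.54 and 1.35 FPKM.

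Another set of lower genes acts in transport between compartments and in secretion. Cse1l returns importin-α from the nucleus to the cytoplasm and was at 21.7 and 36.9 FPKM in the controls without and with OGD, but at 7.85 and 8.37 FPKM in the PGC-1α libraries. Only 1 of its 3 annotated coding transcripts is in the table. Srprb, a subunit of the receptor for the signal recognition particle, was at 11.1, 5.41, 11.8 and 4.32 FPKM. Tm9sf4 is a multispanning membrane protein and was at 27.3 FPKM in both controls and at 14.8 and 13.7 FPKM in the PGC-1α libraries. Hps3, a subunit of a complex for lysosome-related organelles, was at 4.31, 0.0730, 4.35 and 1.85 FPKM. Pex7 is the receptor that imports a class of enzymes into peroxisomes. It was at 4.39 and 5.73 FPKM in the controls and 2.12 and 2.26 FPKM in the PGC-1α libraries. Its gap lay in ENSMUST00000166511, at 2.56 and 4.01 FPKM in the controls and listed at 0 in both PGC-1α libraries. The other deposited Pex7 transcript was slightly higher with PGC-1α, at 1.82, 2.12, 1.71 and 2.26 FPKM. Mgat1, which starts the complex type of N-glycans, was at 5.50, 3.27, 6.82 and 1.52 FPKM.

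Other lower genes act in the nucleus. Taf4, a subunit of the general transcription factor TFIID, was at 15.6, 8.75, 14.8 and 9.43 FPKM. Zbtb17, the MYC-binding factor Miz-1, was at 8.24, 1.73, 3.63 and 1.48 FPKM. Snapc3 is a subunit of a complex needed for transcription of small nuclear RNA genes. It was at 14.3 and 2.55 FPKM in the controls without and with OGD, and at 0.692 and 1.10 FPKM in the PGC-1α libraries. In Zbtb17 and Snapc3 the 2 controls were thus further apart than the 2 PGC-1α libraries. Primpol, which restarts stalled replication, was at 9.33, 2.56, 6.13 and 1.98 FPKM, and the topoisomerase Top3b at 1.61, 0.587, 1.66 and 0.348 FPKM. Ccng2, cyclin G2, was at 16 and 16.5 FPKM in the controls and 9.77 and 7.99 FPKM in the PGC-1α libraries. Its 2 deposited transcripts differed in opposite directions, with ENSMUST00000121127 at 15, 2.60, 15.4 and 3.31 FPKM and ENSMUST00000031331 at 0.985, 7.17, 1.09 and 4.68 FPKM. Oaz2, an antizyme that lowers polyamine synthesis, was at 29.0, 9.43, 35.8 and 18.6 FPKM, and of its 4 deposited transcripts the one that met the rule was at 22.3 and 27.1 FPKM in the controls and listed at 0 in both PGC-1α libraries. Its transcript ENSMUST00000046490 went the other way, at 4.27, 6.47, 6.52 and 16.2 FPKM.

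Among the remaining genes with large gaps, Fam167b was at 41.6, 11.7, 43.7 and 9.77 FPKM, and Kctd3 at 14.6, 2.31, 15.1 and 3.63 FPKM. Clptm1 was at 8.14 and 12.5 FPKM in the controls and at 2.68 and 0.290 FPKM in the PGC-1α libraries. Gm867 (5.30, 0.794, 5.27 and 1.41 FPKM), Radil (5.11, 0.842, 3.44 and 1.16 FPKM) and Dcaf10 (4.18, 1.33, 4.04 and 1.49 FPKM) lay at lower levels. Gm42742 was at 2.04 and 3.36 FPKM in the controls and listed at 0 in both PGC-1α libraries, but it shares exons with Pagr1a and Prrt2. Prrt2 was at 0.812, 12.1, 12.4 and 1.26 FPKM and Pagr1a at 4.35, 1.06, 1.13 and 0.814 FPKM, so the values of these 3 genes cannot be taken apart. Further lower genes were 2010111I01Rik, Kdelc1, Rbak, Mum1, A130010J15Rik, Phyhd1, Zdhhc24, Jmjd8, Gemin8, Gm45716, Dhx35, Habp4, Armc7, Cavin4, Spaca6 and Sergef. Among them Gemin8, of the complex that assembles spliceosomal particles, was at 8.32, 4.45, 7.73 and 4.09 FPKM, and Habp4, an RNA-binding protein, at 20, 12, 19.3 and 10.2 FPKM. Cavin4, a protein of muscle caveolae, was at 4.54, 0.846, 1.88 and 0.854 FPKM, with 1 control well above the other.

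**Figure D2:**
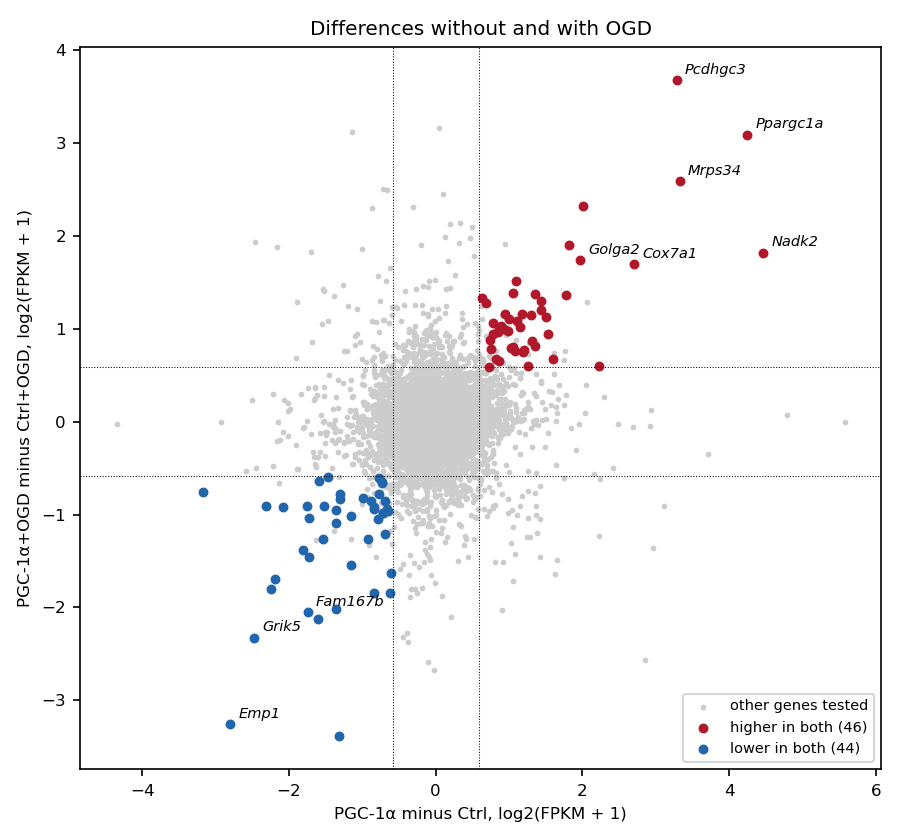
Difference between PGC-1α and Ctrl (horizontal) and between PGC-1α+OGD and Ctrl+OGD (vertical) for 10604 genes, both in log2(FPKM + 1), with dotted lines at 1.5-fold (0.585). The 46 higher genes (red) lie in the upper right and the 44 lower genes (blue) in the lower left, and some gray genes in these corners missed the rule because a library of the other OGD state was too close.

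The size of the differences varied. Of the 46 higher genes, 14 had all ratios at 2-fold or more and 4 at 4-fold or more, and of the 44 lower genes 13 and 2 did. The median difference of the higher genes was 1.16 without OGD and 1.05 with OGD on the log2(FPKM + 1) scale, and that of the lower genes was -1.30 and -0.98. The median over all genes tested was -0.03 and -0.01. Just inside the threshold among the higher genes were Mms22l (ratio 1.5038), Ppox (1.5109) and Pcdhga12 (1.5163), and just outside were Fbxo7 (1.4975), Ndufb10 (1.4933) and Madd (1.4932). Ndufb10, a subunit of complex I, was at 38.0, 87.4, 58.2 and 119 FPKM. Among the lower genes, Sergef (1.5104), Taf4 (1.5173) and Mgat1 (1.5218) were just inside and Dbndd2 (1.4826), Ltc4s (1.4794) and Nupr1 (1.4768) just outside. Nupr1, a stress-induced regulator, was at 160, 103, 152 and 82.4 FPKM.

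The shared genes were not abundant. The median over the 4 libraries' mean was 8.27 FPKM for the higher and 4.46 FPKM for the lower genes, against 12.6 FPKM for all genes tested. Of the lower genes 24 had a mean under 5 FPKM, and of the higher genes 12. A single transcript was deposited for 41.3% of the higher and 45.5% of the lower genes, near the 39.6% of all genes tested. Of the 27 higher genes with 2 or more deposited transcripts, 19 had 1 transcript that met the rule, 6 had 2 or more, and 2 had none (Alg9 and Echdc2). In 4 of them (Cdc7, Dhcr7, Dmtn and Sun2) a transcript met the opposite rule. Of 24 such lower genes, 18 had 1 transcript that met the rule, 2 had 2 or more and 4 had none, and a transcript met the opposite rule in Ccng2. Exons overlap another annotated gene in 17 of the 46 higher and 14 of the 44 lower genes. This share was not computed over all genes tested, so nothing is read from these counts.

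**Figure D3:**
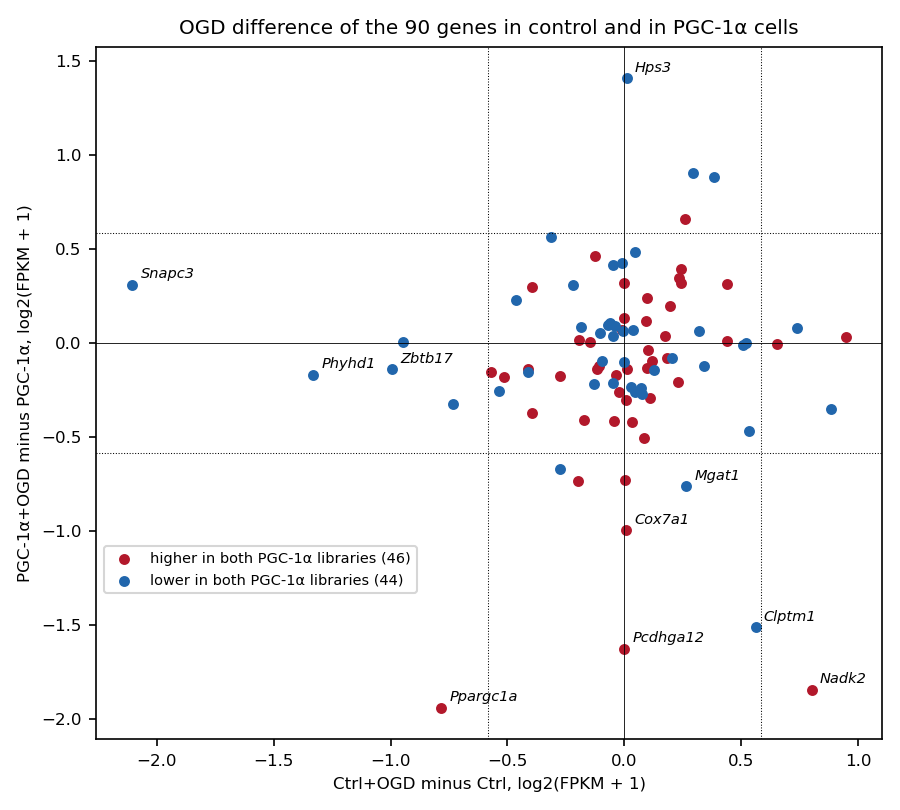
Difference after OGD in control cells (horizontal) and in PGC-1α cells (vertical) for the 46 higher (red) and 44 lower genes (blue), in log2(FPKM + 1), with dotted lines at 1.5-fold. Most genes lie between the dotted lines, Ppargc1a lies low on the left (-0.78 and -1.94) and Nadk2 low on the right (0.80 and -1.84).

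The differences after OGD were mostly small in these genes, and also over all genes tested. In control cells, 3 of the 46 higher genes were at least 1.5-fold higher and 1 lower after OGD, and the median difference was 0.01. In PGC-1α cells 1 was higher and 6 were lower, with a median of -0.13, and the PGC-1α level lay above the PGC-1α+OGD level in 28 of the 46 genes. The largest of these differences were those of Ppargc1a (-1.94), Nadk2 (-1.84), Pcdhga12 (-1.62) and Cox7a1 (-0.99), and Mrps34 and Nhs also passed 1.5-fold (-0.73 and -0.74). Over all genes tested, 49.9% were lower after OGD in PGC-1α cells, 5.22% were lower by at least 1.5-fold, and the median was 0.00. In these cells 3.82% of all genes tested were higher by at least 1.5-fold. In control cells 6.20% of all genes tested were at least 1.5-fold higher after OGD and 7.71% lower, with a median of -0.02. Among the 44 lower genes, the median difference after OGD was -0.01 in control cells, where 2 were at least 1.5-fold higher and 5 lower, and 3 were higher and 3 lower in PGC-1α cells. Snapc3 (-2.11) and Phyhd1 (-1.33) had the largest negative differences in control cells and Hps3 (1.41) the largest positive one in PGC-1α cells. The rule requires that both libraries of a side lie beyond the other side, so large differences after OGD were held down by the choice of the genes.

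Below the 1.5-fold threshold, many more mitochondrial genes lay on one side. By any amount, both PGC-1α libraries were above both controls in 1361 of 10604 genes (12.8%) and below both in 1780 (16.8%), or 14.7% and 14.5% after median ratio scaling of the libraries. Of the 82 tested nuclear-encoded genes of the respiratory chain, 63 (76.8%) were above both controls and 1 was below, although Cox7a1 alone met the 1.5-fold rule. The one below was Cox6a2, the muscle form of another cytochrome c oxidase subunit, at 91.9, 45.7, 71.8 and 64.1 FPKM. The genes of complexes II and III were above both controls in 13 of 13 cases, those of complex I in 27 of 37, those of ATP synthase in 14 of 18 and those of cytochrome c oxidase with cytochrome c in 9 of 15. Sdha, the catalytic subunit of complex II, was at 75.9 and 82.4 FPKM in the controls and at 112 and 110 FPKM in the PGC-1α libraries, so that the lower of these was 1.33 times the higher control in FPKM + 1. Uqcrfs1, the iron-sulfur protein of complex III, was at 55.5, 81.4, 60.8 and 80.3 FPKM. Sdha and Uqcrfs1 thus had nearly the same level in both PGC-1α libraries. They had the widest gaps of complexes II and III, 0.41 and 0.39 on the log2(FPKM + 1) scale. Other genes counted as above had far smaller gaps, such as Ndufb6 (0.004) and Atp5j (0.02). Over the 82 genes the median difference was 0.45 without OGD but 0.17 with OGD.

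The 13 subunits encoded by mitochondrial DNA were all above both controls. mt-Nd1 was at 1449, 2364, 2056 and 2579 FPKM, and mt-Co1 at 2398, 2673, 2627 and 2962 FPKM. Their gaps were small, from 0.03 (mt-Co1) to 0.32 (mt-Nd4l) on the log2(FPKM + 1) scale. Of the citrate cycle and pyruvate entry, 24 of 36 genes (66.7%) were above both controls and none was below. Idh3a, a subunit of isocitrate dehydrogenase, narrowly missed the threshold with 33.9 and 55.3 FPKM in the controls and 82.5 and 92.3 FPKM in the PGC-1α libraries.

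**Figure D4:**
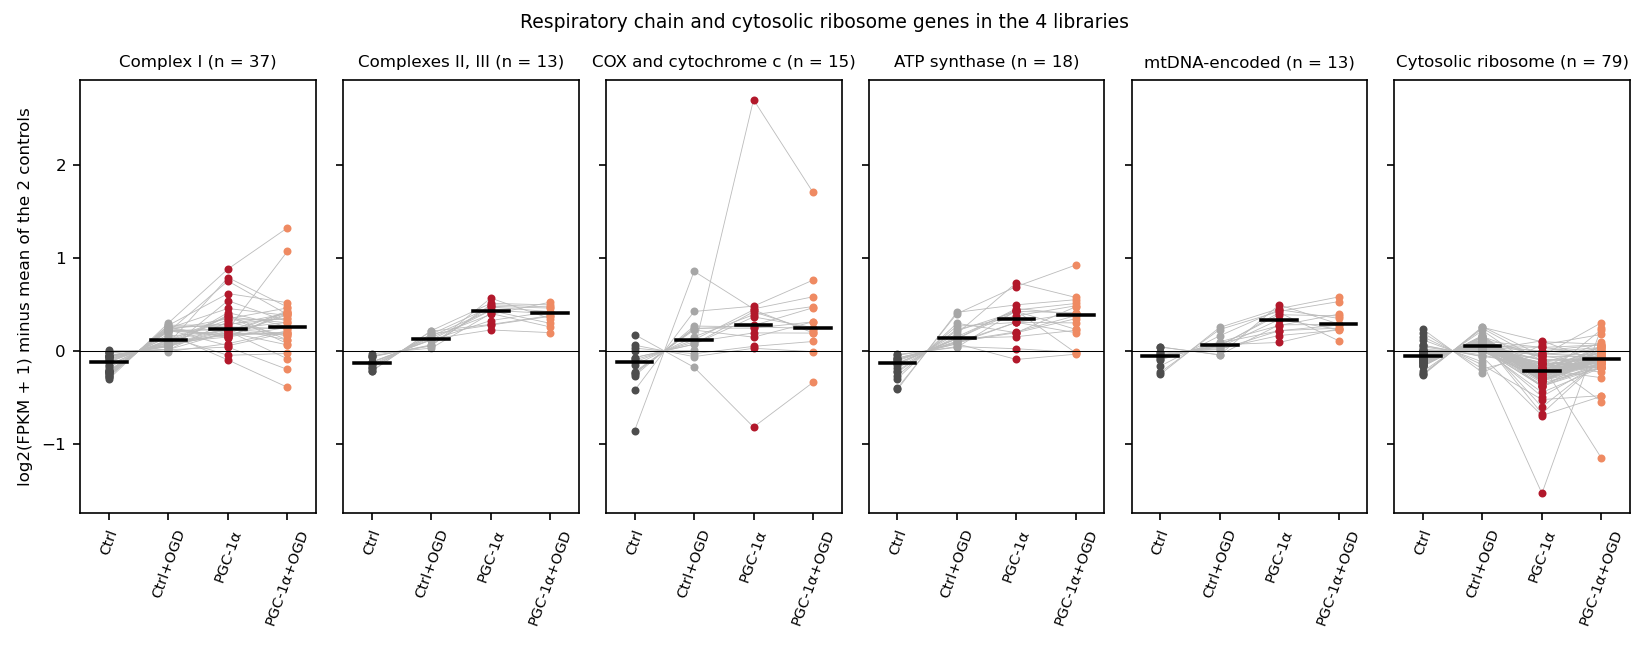
Genes of the respiratory chain complexes, of mitochondrial DNA and of the cytosolic ribosome in the 4 libraries. The vertical axis is log2(FPKM + 1) minus the mean of the 2 controls, each point is a gene, gray lines join a gene and black bars are medians. Cox7a1 stands above all others in the third panel, and each of the 13 genes of mitochondrial DNA is higher in both PGC-1α libraries (red and orange) than in both controls (gray).

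Other mitochondrial functions were less one-sided. Of 39 genes of fatty acid oxidation, 19 were above both controls and 3 below, and of 61 genes of respiratory chain assembly and coenzyme Q synthesis, 24 and 4. Among the 77 mitochondrial ribosomal proteins 13 were above and 5 below, among the 55 genes of mitochondrial import and proteases 13 and 6, and among the 32 genes of mitochondrial fusion, fission and nucleoid 6 and 2. The shares above both controls in these last 3 lists were 16.9%, 23.6% and 18.8%, nearer to the 12.8% of all genes tested than those of the respiratory chain. Of the 38 known PGC-1α targets, 18 were above both controls and 2 below. Esrra, the nuclear receptor ERRα that works with PGC-1α, was at 4.73 and 5.13 FPKM in the controls and at 8.75 and 7.30 FPKM in the PGC-1α libraries. The mitochondrial superoxide dismutase Sod2 was at 22.2, 36.5, 24.4 and 30.2 FPKM and the deacylase Sirt5 at 0.599, 2.11, 0.928 and 1.58 FPKM. Sod2 is also on the list of antioxidants and NRF2 targets, where 6 of 45 genes were above both controls and 7 below. These shares (13.3% and 15.6%) were near the 12.8% and 16.8% of all genes tested. Got1, an enzyme of the malate-aspartate shuttle, was at 24.9, 48.0, 27.5 and 38.4 FPKM. The targets Gpt2 (27.1, 19.5, 23.9 and 22.1 FPKM) and Nampt (24.3, 20.4, 27.3 and 22.2 FPKM) were below both controls.

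**Figure D5:**
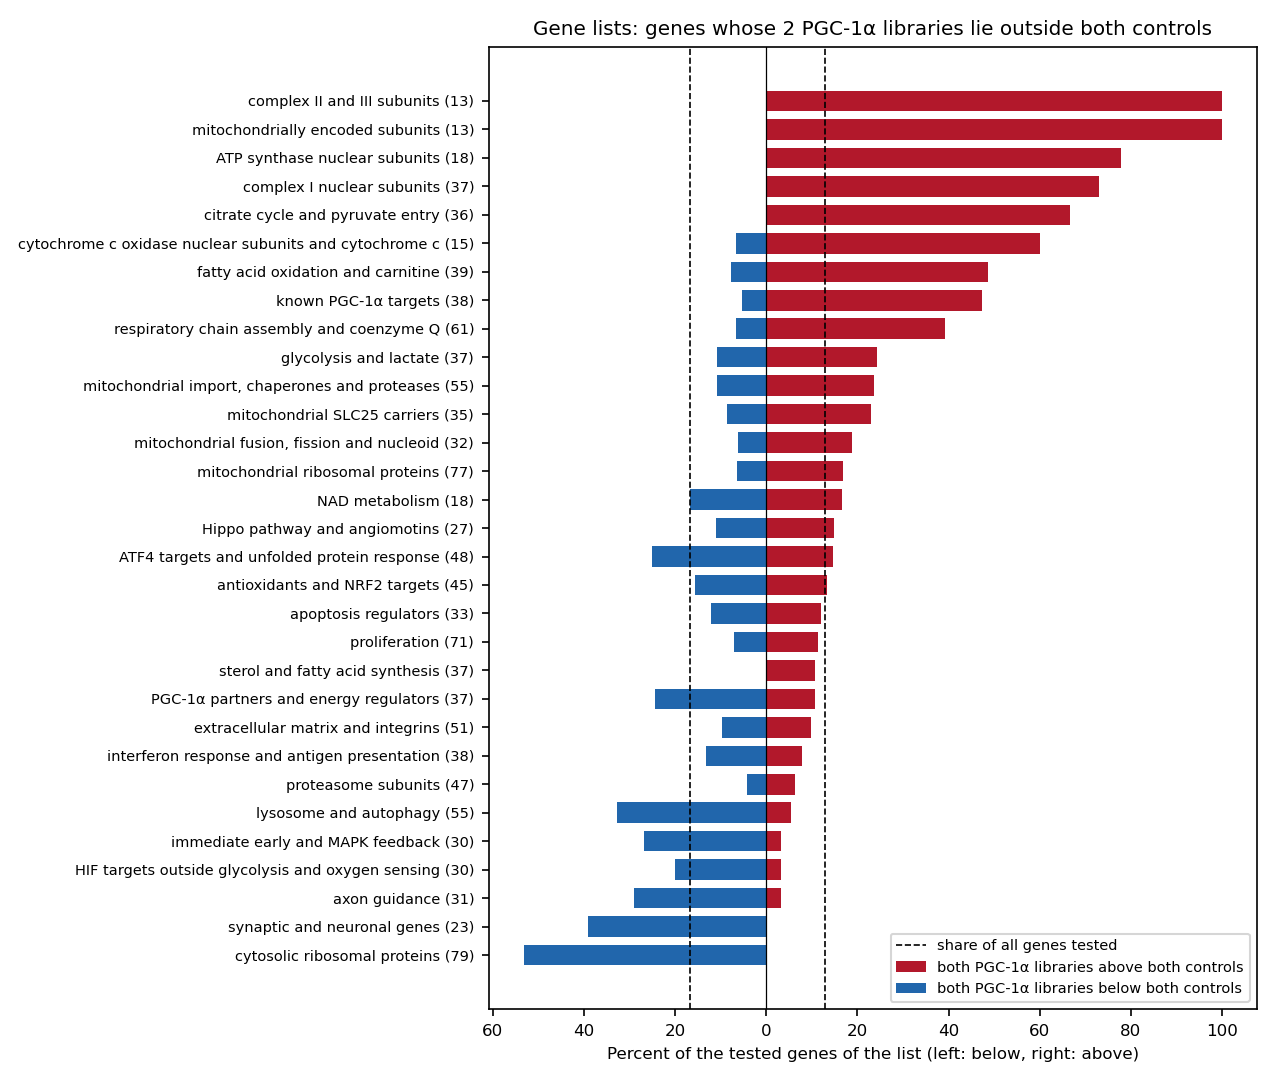
Share of the tested genes of each list for which both PGC-1α libraries lay above both controls (red, to the right) or below both (blue, to the left), in percent, with the number of tested genes in parentheses. Dashed lines are the shares over all genes tested, 12.8% above and 16.8% below. The complexes of the respiratory chain and the citrate cycle are at the top and cytosolic ribosomal proteins at the bottom.

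In several lists without a gene that met the rule, more genes were below both controls than above. Over all genes tested, too, more were below (16.8%) than above (12.8%), which was no longer so after median ratio scaling. The counts below are without this scaling unless it is named. Of 79 cytosolic ribosomal proteins, 42 were below both controls and none above, and the list median was -0.15 in either comparison on the log2(FPKM + 1) scale. The widest separation among them was that of Rps13 (156, 92.0, 143 and 106 FPKM). The count below both controls was 30 of 79 after median ratio scaling. It was 70 of 79 without the Ctrl library and 66 of 79 without the PGC-1α+OGD library, where 36.6% and 31.9% of all genes were below. Of 55 lysosome and autophagy genes, 18 were below and 3 above, and the protease Ctsa was among those below (25.3 and 21.2 FPKM in the controls, 16.2 and 14.9 FPKM in the PGC-1α libraries). In the list of 23 synaptic and neuronal genes, 9 were below and none above, with Homer3 at 8.89, 5.88, 9.59 and 5.66 FPKM. Of 30 immediate early and MAPK feedback genes, 8 were below and 1 above. Ier3, an early response gene, was at 24.6, 12.1, 19.2 and 12.8 FPKM. By contrast, in glycolysis and lactate metabolism 9 of 37 genes were above both controls and 4 below, and Ldhb alone met the rule.

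The promoters of the shared genes were searched for letters of motifs of factors that work with PGC-1α. RefSeq windows (GRCm38.p6, 250 bases before to 50 bases after a start) were found for 35 of the 46 higher and 37 of the 44 lower genes, and the table holds 32851 windows in all. Each motif was searched on both strands. The ERR site AAGGTCA was found in 3 of 45 windows of the higher genes (6.67%) and 3 of 48 of the lower genes (6.25%), against 4.72% of all windows and 3.10% of the windows of genes tested. The NRF1 core GCGCATGC was found in 5 of 45 windows of higher genes (11.1%, in Cdc7, Ndufaf4, Zbtb41 and Zfp82) and 3 of 48 of lower genes (6.25%), against 2.71% of all windows and 5.53% of those of genes tested. The GABPA site CCGGAAGT was in 4.44% of the windows of higher genes and 8.33% of those of lower genes (9.00% of those of genes tested). The YY1 site AAGATGGC was in 4.44% and 4.17% (4.66%), and the cAMP response element TGACGTCA in 2.22% and 4.17% (3.20%). Windows of a gene can overlap, so that the same site can be counted more than once, as in Cdc7, Zbtb17 and Phyhd1. Counted by gene, the ERR site was in 8.57% of the higher and 5.41% of the lower genes (3.72% of genes tested). The NRF1 core was in 11.4% and 5.41% (6.52%). With so few genes nothing is read from these shares. These are matches of letters and not bound sites.

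The genes with an ERR site were Dhcr7, Pacsin2 and Psmb10 among the higher and Phyhd1 and Spaca6 among the lower genes. For Dhcr7, the match (in capitals) begins at base -51 from the start of ENSMUST00000073878, the transcript that was lower with PGC-1α, and lies 6961 bases before the start of ENSMUST00000141916, the one that was higher. The stretch shown is chr7:143823017-143823166 on the plus strand, with its last 22 bases in an annotated exon.
Dhcr7: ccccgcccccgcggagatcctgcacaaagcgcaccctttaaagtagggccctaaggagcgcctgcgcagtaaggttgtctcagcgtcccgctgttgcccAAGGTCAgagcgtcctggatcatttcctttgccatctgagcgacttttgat
For Pacsin2, the match lies 91 bases before the start of a transcript at 5.15, 4.87, 8.05 and 1.76 FPKM, and 31700 bases downstream of the start of the transcript that carries the gap (27.1, 63.4, 28.7 and 62.9 FPKM). For Psmb10 it lies 10 bases after the start of the only deposited transcript. In these 3 higher genes the ERR site was therefore not within 250 bases before the start of a transcript that met the rule. Among the lower genes, it began 133 bases before the start of the Phyhd1 transcript that met the rule (6.28, 0.0585, 2.34 and 0.202 FPKM) and 11 bases after the start of the deposited Spaca6 transcript. The NRF1 core was within that distance of such a transcript in Cdc7, Ndufaf4, Zbtb41 and Zfp82 among the higher genes and in A130010J15Rik and Zbtb17 among the lower genes. In Cdc7 the match also lies 34 bases before the start of ENSMUST00000076467, which met the opposite rule. That transcript was at 0.952 and 0.996 FPKM in the controls, listed at 0 with PGC-1α alone and at 0.0575 FPKM after OGD. Zbtb41, a zinc finger protein, was at 2.08, 7.29, 2.00 and 6.38 FPKM and Zfp82 at 0.486, 2.18, 0 and 1.85 FPKM, where 0 is the value listed.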

How the data were processed

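RNA-Seq of poly(A) RNA from HT-22 cells was available for 4 libraries, 1 per condition, grouped by their sample records. The authors prepared stranded libraries and aligned the reads to GRCm38 with HISAT2 (version 2.1.0 in the submitters' processing notes). They deposited 1 table of values for 25889 transcripts. Its unit is not given in the sources used here and the deposited values were taken as FPKM, because they are never negative and their totals differ. The program behind them and the reads per library are not given in the sources used here, and each listed transcript reaches at least 0.500 FPKM in a library. Identifiers without version matched GENCODE M21 for 25822 transcripts (67 did not match), and transcripts were summed to 11502 symbols. Genes that averaged 1 FPKM or more were compared as log2(FPKM + 1), which understates the difference of low genes. No library is replicated, so no p-value was computed.

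A gap is the smallest of the 4 differences between a PGC-1α and a control library, and the smallest ratio is the same on the linear scale. The members and lists were chosen with earlier results of these data known. Named are Ppargc1a, the 20 higher and 15 lower genes with the largest gap, members on lists, 3 genes on each side of the threshold and genes that share exons with these. Other genes were added after their values were seen. Alternatives were other pseudocounts, filters, scalings and thresholds, 1 transcript per gene, pairs of the same OGD state and leaving out each library. Promoters come from RefSeq. The work used pandas 2.3.3 and numpy 2.4.6 in Python 3.11.15, with plots from matplotlib 3.10.9. The rule was also run on simulated data. Without replicates the noise of the real libraries is unknown, so that run gives no error rate for the shared genes. Certain genes, among them 1 of the 46 higher genes, are counted but not reported here by name.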

Additional observations from a re-analysis of the deposited data

Results flagged for a closer look

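Nadk2 moved in opposite directions after OGD in the 2 kinds of cells. The difference was 0.80 between Ctrl+OGD and Ctrl and -1.84 between PGC-1α+OGD and PGC-1α, on the log2(FPKM + 1) scale. Each value compares 1 library with 1 library, and the difference between them was not tested.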

How the results depend on the processing

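The rule gave 46 higher and 44 lower genes. With a pseudocount of 5 in place of 1 it gave 23 and 12, with a mean of at least 5 FPKM 34 and 20, and with a 2-fold threshold 14 and 13. With the highest transcript in place of the sum it gave 94 and 102, of which 39 and 36 were among the genes found with sums. With each PGC-1α library set only against the control of the same OGD state it gave 75 and 79. Leaving out each library in turn gave 110 to 282 higher and 147 to 267 lower genes, which contain the 46 and 44, because fewer comparisons then have to pass. Among genes with 1 deposited transcript there were 19 and 20, and among genes whose exons overlap no other gene 29 and 30 (both chosen after seeing the data). A pseudocount of 0.1, no filter, and median ratio or upper quartile scaling gave 49 to 63 higher and 42 to 65 lower genes. Among 39 named genes, the 2-fold threshold aside, 26 passed the threshold under every alternative whose filter kept them and 13 missed it under at least 1, with no reversal. Of 15 such misses, 11 were with the pseudocount of 5 and 4 with the highest transcript (Pigq, Echdc2, Radil and Primpol). A miss was possible only with these and with the median ratio or upper quartile scaling. A gene that meets the rule also passes the other alternatives by construction, so passing those shows nothing. No fit with a replicate block was made, since the labels carry no replicate numbers, and genes chosen by these values were not tested. Without replicates and read counts, neither biological nor counting error can be given.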
